A study of Mus musculus with 6 samples.

Results

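The kinetochore is the protein assembly that ties each chromosome to the spindle, and 40 of the 24421 genes in the deposited table encode its parts, the centromeric chromatin beneath it or the spindle checkpoint that it feeds. They were taken by gene symbol from a list of centromere proteins, outer kinetochore proteins and checkpoint proteins, and all 40 were found. Of these, 39 reached 1 FPKM (fragments per kilobase of gene, scaled for the depth of the library) in at least 3 of 6 libraries and were tested together with 12121 genes in all; the histone chaperone gene Hjurp, at 0.528 to 1.45 FPKM, did not. The study sequenced poly(A) RNA from E18.5 hearts, taken from mouse embryos shortly before birth; its title speaks of a cytokinesis defect of cardiomyocytes without Gas2l3. There were 3 libraries labelled Gas2l3 -/- and 3 labelled wildtype, all of strain C57/Bl6, with no further allele or treatment named. Neither the deleted exons of Gas2l3 nor the number of embryos behind a library is given in the labels, and the p-values therefore speak only for the scatter among the 6 libraries. The groups are named knockout-labelled and wildtype-labelled, and sets of 3 values follow replicates 1, 2 and 3.

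Centromeres are marked by nucleosomes that hold the histone H3 variant encoded by Cenpa. On them sits the constitutive centromere network, which stays through the cell cycle. In mitosis it recruits the KNL1, MIS12 and NDC80 complexes, of which NDC80 grips microtubules, while the outer corona and the checkpoint proteins hold back anaphase until every chromosome is attached. Transcripts of many of these genes peak in G2 and mitosis, so in a tissue they are read as genes of dividing cells, and cardiomyocytes of the mouse still cycle before birth.

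Recovered reads per library ranged from 3414257 in wildtype-labelled replicate 1 to 7732674 in wildtype-labelled replicate 3. The 40 genes held between 22 and 4260 reads each in a library. Gas2l3, which encodes a linker of actin and microtubules, was at 4.03, 2.99 and 3.06 FPKM in knockout-labelled libraries, against 10.3, 4.12 and 2.48 FPKM in wildtype-labelled libraries, so the groups overlapped and wildtype-labelled replicate 3 went against its label. That library also stood apart by base composition: over 12070 genes its deviations from the gene means correlated with the GC content of the transcript at 0.703, against −0.483 to −0.0715 in the other 5 libraries. Of these, knockout-labelled replicate 1 was at −0.483 and wildtype-labelled replicate 1 at −0.477. Correlations with log gene length ran from −0.415 in knockout-labelled replicate 2 to 0.357 in wildtype-labelled replicate 1. Results are therefore also given after subtracting each library's trends on GC content and gene length (trends removed), and without wildtype-labelled replicate 3. FPKM totals also differed, at 456856 to 630522 in knockout-labelled and 429622 to 788996 in wildtype-labelled libraries, the highest in wildtype-labelled replicate 3. The summed levels that follow are not rescaled for this. Cardiomyocyte markers were present, 10 of 10 tested, with lower means for 9 of 10. Their summed levels were 31860 to 36890 FPKM in knockout-labelled and 36200 to 53100 FPKM in wildtype-labelled libraries. The 8 fibroblast markers, 6 with higher means, summed to 1113 to 1363 FPKM in knockout-labelled and 798 to 1679 FPKM in wildtype-labelled libraries, and the 8 endothelial markers to 417 to 502 FPKM in knockout-labelled and 338 to 757 FPKM in wildtype-labelled libraries. Macrophage markers (9) summed to 102 to 157 FPKM in knockout-labelled and 64.1 to 153 FPKM in wildtype-labelled libraries, and smooth muscle and pericyte markers (6) to 406 to 710 FPKM in knockout-labelled and 439 to 783 FPKM in wildtype-labelled libraries. Epicardial markers (6) overlapped as well, with up to 122 FPKM in knockout-labelled and 74.5 to 151 FPKM in wildtype-labelled libraries. Erythroid markers summed to 29.0 to 123 FPKM in knockout-labelled and 28.0 to 49.5 FPKM in wildtype-labelled libraries, with Hba-a1, Hba-a2, Hbb-bs and Hbb-bt listed at 0 in each library. The part of cell composition in the results was not tested.

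Of the 39 tested kinetochore and checkpoint genes, 28 were lower on average in knockout-labelled than in wildtype-labelled hearts, but no single gene passed the test. The median log2 fold change, taken as knockout-labelled over wildtype-labelled on the log2(FPKM + 0.5) scale, was −0.27 over the 39 members and −0.01 over all tested genes, 51% of which had a lower mean. limma called 0 members and 0% of all tested genes at an adjusted p under 0.05, and the lowest adjusted p of a member was 0.966. At an unadjusted p under 0.05 there were 7 members, all lower, where 1.35% of all tested genes were lower and 1.9% higher at that level. With libraries paired by replicate number the count was 12, again all lower, where 2.27% of all tested genes were lower, and the lowest adjusted p was 0.681 (limma). For 10 members (25.6%) every knockout-labelled library lay below every wildtype-labelled one, and for 0 members above; over all tested genes these shares were 4.74% and 5.02%. The 10 were Cenpa, Cenpm, Cenpn, Ndc80, Pmf1, Ska3, Cenpe, Cenpf, Bub1b and Bub3. In the authors' deposited table the lowest adjusted p of a member, 0.429, was shared by Cenpa and Cenpf, with log2 fold changes of −0.88 and −0.82. Reads of the 40 genes together made up 0.137%, 0.154% and 0.141% of the knockout-labelled libraries, against 0.190%, 0.184% and 0.174% of the wildtype-labelled libraries. This sum leaned on Cenpb in wildtype-labelled replicate 3, where that gene alone held 4260 of the 13441 reads. In wildtype-labelled replicates 1 and 2 Cenpb held 542 of 6471 and 2600 of 13959. In knockout-labelled libraries it held 1201 of 8167, 1577 of 8486 and 1545 of 9127. The shares are therefore no measure of the typical member. In whole hearts, fewer dividing cells and less of these transcripts per dividing cell cannot be told apart.

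**Figure D1:**
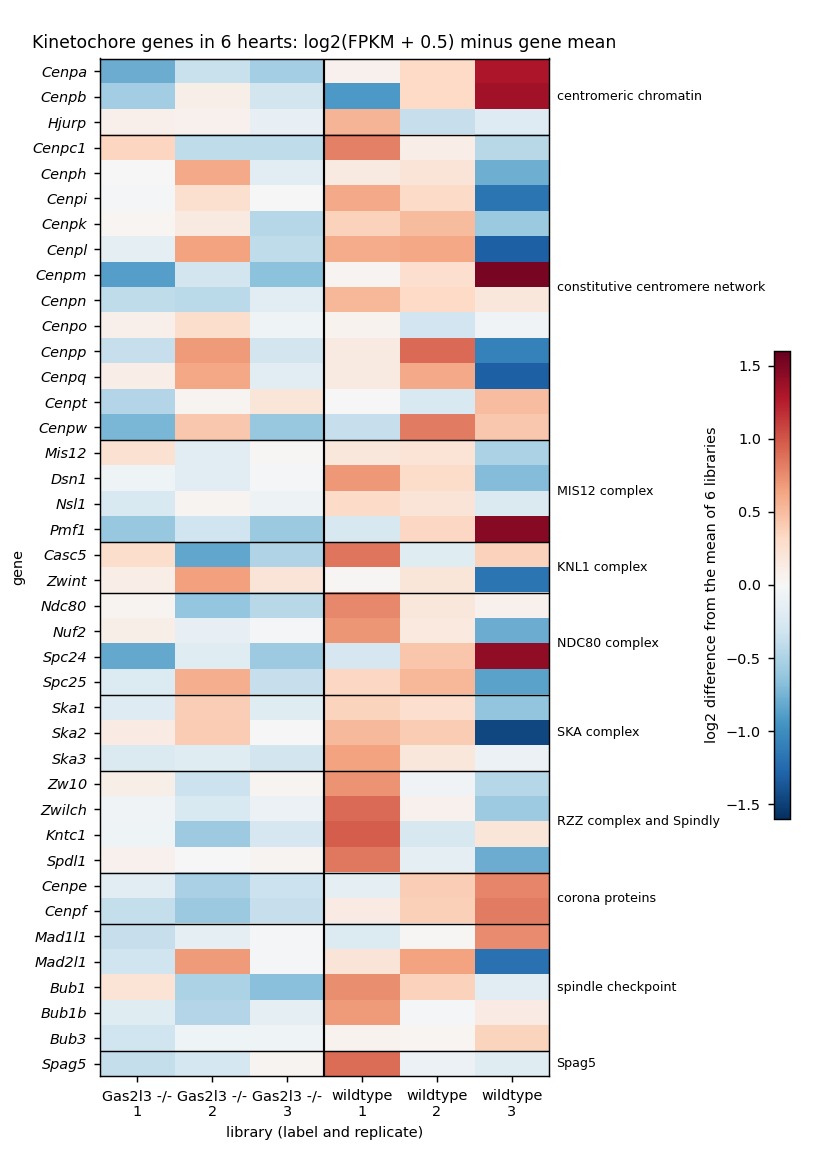
Heat map of the 40 genes (rows, by sub-complex) in 6 libraries (columns, Gas2l3 -/- left of wildtype), as log2(FPKM + 0.5) minus the mean of the gene over the 6 libraries. Wildtype-labelled replicate 3 is the highest library for 10 of the 39 tested genes and the lowest for 18, while wildtype-labelled replicate 1 is the highest for 17.

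Both wildtype-labelled replicates 1 and 3 shaped these values, in different ways. Among the 39 tested members, wildtype-labelled replicate 1 was the highest of the 6 libraries for 17 and the lowest for 1, whereas wildtype-labelled replicate 3 was the highest for 10 and the lowest for 18. Without wildtype-labelled replicate 3, 35 of 39 members had lower means and the median was −0.52, with 49.9% of all tested genes lower; 9 members were lower at an unadjusted p under 0.05, where 1.66% of all tested genes were. Without wildtype-labelled replicate 1, 21 of 39 were lower and the median was −0.065, with 48.9% of all tested genes lower; 9 members were again lower at that level, where 7.1% of all tested genes were. Cell type markers also differed in these fits, though untested as lists: without wildtype-labelled replicate 3, means were higher for 8 of 8 fibroblast, 8 of 8 endothelial and 8 of 8 tested macrophage markers (medians 0.51, 0.43 and 0.39) and lower for 10 of 10 cardiomyocyte markers (median −0.21). Without wildtype-labelled replicate 1, means were higher for 5 of 8 fibroblast, 4 of 8 endothelial and 4 of 8 macrophage markers and lower for 9 of 10 cardiomyocyte markers. With trends removed, 34 of 39 were lower with a median of −0.32, where 51.6% of all genes tested were lower. The groups then lay apart for 17 members (43.6%), all lower, where 8.5% of all genes tested lay apart lower and 6.62% higher. At an unadjusted p under 0.05 there were then 14 members, all lower, where 3.99% of all genes tested were lower and 3.88% higher, and the lowest adjusted p of a member was 0.233 (limma, 0 members and 0.00829% of all genes tested called).

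Centromeric chromatin held the 2 most abundant transcripts per length. Cenpb, whose protein binds a short DNA box in centromeric repeats, averaged 115 FPKM over the 6 libraries and Cenpa 79.9 FPKM. Cenpa was at 40.6, 55.1 and 48.2 FPKM in knockout-labelled hearts, against 74.1, 88.2 and 173 FPKM in wildtype-labelled hearts. The groups did not overlap, and wildtype-labelled replicate 3 was the highest library. The log2 fold change was −1.12 (SE 0.37), and −0.76 without that library. Cenpb was at 68.0, 107 and 81.8 FPKM in knockout-labelled hearts, against 52.9, 125 and 256 FPKM in wildtype-labelled hearts, so the groups overlapped. Its log2 fold change of −0.50 (SE 0.53) was 0.05 without wildtype-labelled replicate 3. Hjurp, which loads the Cenpa product onto centromeres, was the least abundant of the 40 genes, at 0.844 ± 0.109 FPKM in knockout-labelled and 0.879 ± 0.498 FPKM in wildtype-labelled hearts (SD, n = 3 each).

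In the constitutive centromere network, 6 of 12 members had lower means, and the median log2 fold change was −0.07. This count rested on wildtype-labelled replicate 3: without it 10 of 12 were lower with a median of −0.53, whereas without wildtype-labelled replicate 1 it was 5 of 12 with a median of 0.052. With trends removed 9 of 12 were lower with a median of −0.19. The median was 0.0976 after rescaling to a common FPKM total, which put the median of all tested genes at 0.15. Cenpm, a subunit of the arm that also holds the Cenph, Cenpi and Cenpk products, was at 9.91, 15.1 and 11.7 FPKM in knockout-labelled hearts, against 19.3, 22.6 and 54.2 FPKM in wildtype-labelled hearts. These groups lay apart, with a log2 fold change of −1.22 (SE 0.40), and of −0.77 without wildtype-labelled replicate 3, its highest library. Cenpn, whose product reads the centromeric nucleosome, was at 7.81, 7.69 and 9.28 FPKM in knockout-labelled hearts, against 15.4, 13.3 and 12.01 FPKM in wildtype-labelled hearts. The groups lay apart with a log2 fold change of −0.68 (SE 0.23), and Cenpn stayed between −0.59 and −0.76 without either wildtype-labelled replicate 1 or 3. Cenpl, whose product pairs with that of Cenpn, was at 3.93, 7.15 and 3.20 FPKM in knockout-labelled hearts, against 6.88, 7.002 and 1.48 FPKM in wildtype-labelled hearts, which overlapped. Its log2 fold change was 0.06 (SE 0.53), and −0.57 without wildtype-labelled replicate 3. Cenpc1, the pillar that joins the nucleosome to the MIS12 complex, was at −0.31 (SE 0.37), Cenpw at −0.60 (SE 0.41) and Cenpt at −0.15 (SE 0.30); the last 2 encode histone-fold partners. Without wildtype-labelled replicate 3 Cenpc1 was at −0.61 and Cenpt at 0.05, and without wildtype-labelled replicate 1 Cenpc1 was at 0.01 and Cenpw at −0.93.

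As deposited, the other members of the network showed no separation of the groups. Cenph was at 6.77, 10.5 and 5.98 FPKM in knockout-labelled hearts, against 7.56, 7.88 and 3.72 FPKM in wildtype-labelled hearts (log2 fold change 0.29, SE 0.35). Cenpi was at 5.76, 7.01 and 5.86 FPKM in knockout-labelled hearts, against 9.13, 7.32 and 2.32 FPKM in wildtype-labelled hearts (0.16, SE 0.44). For both genes, and for Cenpq and Cenpp, wildtype-labelled replicate 3 was the lowest of the 6 libraries. Without it Cenph was at −0.03, Cenpi at −0.38, Cenpq at −0.20 and Cenpp at −0.52. Cenpq was at 9.90, 14.3 and 8.05 FPKM in knockout-labelled hearts, against 10.2, 14.3 and 3.42 FPKM in wildtype-labelled hearts (0.36, SE 0.48). Cenpp was at 9.29, 19.6 and 9.79 FPKM in knockout-labelled hearts, against 13.5, 23.1 and 5.47 FPKM in wildtype-labelled hearts (0.02, SE 0.50). Cenpo, of the same arm as Cenpp and Cenpq, was at 1.39, 1.66 and 1.198 FPKM in knockout-labelled hearts, against 1.35, 0.937 and 1.21 FPKM in wildtype-labelled hearts (0.20, SE 0.28). Cenpk was at −0.19 (SE 0.35), and at −0.53 without wildtype-labelled replicate 3. With trends removed Cenpk was at −0.46 and its groups lay apart lower. Exons of Cenpo share 19% of their length with the opposite-strand gene Adcy3, and those of Cenpp 12.3% with Ippk, and whether strand was used in counting is not given in the sources, so their levels are uncertain.

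Of the 4 MIS12 complex genes, 3 had lower means, and without wildtype-labelled replicate 3 all 4 did. Pmf1 was at 36.2, 44.6 and 36.5 FPKM in knockout-labelled hearts, against 46.3, 69.8 and 153 FPKM in wildtype-labelled hearts. The groups lay apart, and the log2 fold change of −1.01 (SE 0.43) was −0.54 without wildtype-labelled replicate 3. Mis12 was at 8.87, 6.56 and 7.52 FPKM in knockout-labelled hearts, against 8.46, 8.73 and 5.09 FPKM in wildtype-labelled hearts (log2 fold change 0.07, SE 0.28). Nsl1 was at 4.47, 5.61 and 5.10 FPKM in knockout-labelled hearts, against 6.81, 6.32 and 4.52 FPKM in wildtype-labelled hearts (−0.18, SE 0.25), and Dsn1 was at −0.19 (SE 0.36). Without wildtype-labelled replicate 3 Dsn1 stood at −0.59, Nsl1 at −0.35 and Mis12 at −0.17, so Dsn1 was then the lowest of the 4. With trends removed Pmf1, whose GC content is uncertain, was at −1.10, Dsn1 at −0.32, Nsl1 at −0.24 and Mis12 at −0.11. Without wildtype-labelled replicate 1 the median of the 4 was 0.01. Per length Pmf1 averaged 64.5 FPKM over the 6 libraries, against 9.74 FPKM for Dsn1, 7.54 FPKM for Mis12 and 5.47 FPKM for Nsl1.

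Casc5, also named Knl1, encodes the scaffold on which Bub1 and Bub1b products gather. It was at 2.30, 0.797 and 1.15 FPKM in knockout-labelled hearts, against 3.68, 1.51 and 2.49 FPKM in wildtype-labelled hearts (log2 fold change −0.69, SE 0.39, and −0.43 without wildtype-labelled replicate 1). Its partner Zwint was at 42.3, 62.4 and 45.2 FPKM in knockout-labelled hearts, against 39.6, 44.9 and 17.1 FPKM in wildtype-labelled hearts. Wildtype-labelled replicate 3 was the lowest library, and the groups overlapped. Zwint had the highest log2 fold change of the 39 members, 0.65 (SE 0.39), which was 0.22 without that library and 0.42 (SE 0.27) with trends removed. Zwint and Cenpo were the only members above 0 in each of these 3 fits.

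Within the NDC80 complex, the 4 subunits divided into a pair below −0.6 and a pair near 0. Ndc80, the microtubule-binding subunit, was at 8.47, 5.17 and 5.94 FPKM in knockout-labelled hearts, against 14.4, 9.42 and 8.69 FPKM in wildtype-labelled hearts, with no overlap (log2 fold change −0.68, SE 0.29). Spc24, of the end that docks on the kinetochore, was at 20.1, 31.1 and 23.7 FPKM in knockout-labelled hearts, against 29.7, 48.9 and 96.7 FPKM in wildtype-labelled hearts. Its groups overlapped by the margin of knockout-labelled replicate 2 over wildtype-labelled replicate 1, and the log2 fold change was −1.07 (SE 0.43), or −0.62 without wildtype-labelled replicate 3. Their direct partners Nuf2 and Spc25 were at −0.04 (SE 0.37) and −0.01 (SE 0.42). Without wildtype-labelled replicate 3 these stood at −0.45 and −0.44, so all 4 subunits were below −0.4. Without wildtype-labelled replicate 1 Nuf2 was at 0.30 and Spc25 at 0.15. The SKA complex, which holds on to shortening microtubules beside NDC80, had Ska3 at 5.21, 5.34 and 4.93 FPKM in knockout-labelled hearts, against 9.92, 7.04 and 5.74 FPKM in wildtype-labelled hearts, with no overlap (−0.48, SE 0.26, and −0.28 without wildtype-labelled replicate 1). Ska2 was at 25.3, 30.7 and 23.1 FPKM in knockout-labelled hearts, against 33.4, 30.8 and 8.15 FPKM in wildtype-labelled hearts (0.35, SE 0.50, and −0.29 without wildtype-labelled replicate 3). Ska1 was at 4.25 ± 1.198 FPKM in knockout-labelled and 4.38 ± 1.62 FPKM in wildtype-labelled hearts (SD, n = 3 each).

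Both corona genes, Cenpf and Cenpe, lay apart between the groups. Cenpf, a large coiled-coil protein of the outer kinetochore, was at 2.76, 2.32 and 2.81 FPKM in knockout-labelled hearts, against 4.14, 5.05 and 7.07 FPKM in wildtype-labelled hearts. Its log2 fold change was −0.89 (SE 0.27), with −0.70 and −1.05 without wildtype-labelled replicates 3 and 1. Cenpe, the kinesin that carries chromosomes to the spindle equator, was at 2.30, 1.72 and 2.01 FPKM in knockout-labelled hearts, against 2.36, 3.68 and 4.95 FPKM in wildtype-labelled hearts (−0.69, SE 0.30). The gap between its groups was narrow, and with trends removed they overlapped. In the RZZ complex, which recruits Spindly and dynein, Kntc1 was at 3.51, 2.31 and 2.99 FPKM in knockout-labelled hearts, against 7.74, 3.002 and 4.32 FPKM in wildtype-labelled hearts (−0.61, SE 0.35). Zwilch was at 5.46, 4.75 and 5.32 FPKM in knockout-labelled hearts, against 11.1, 6.02 and 3.67 FPKM in wildtype-labelled hearts (−0.27, SE 0.37). Zw10 was at 8.24, 5.97 and 7.91 FPKM in knockout-labelled hearts, against 13.0, 7.37 and 5.45 FPKM in wildtype-labelled hearts (−0.14, SE 0.33). Spdl1, which encodes Spindly, was at 5.68, 5.33 and 5.54 FPKM in knockout-labelled hearts, against 10.0, 4.77 and 2.88 FPKM in wildtype-labelled hearts (0.07, SE 0.39). In all 4 of these genes wildtype-labelled replicate 1 was the highest library, and without it Kntc1 was at −0.27, Zwilch at 0.12, Zw10 at 0.19 and Spdl1 at 0.51. Without wildtype-labelled replicate 3 all 4 were lower, with Kntc1 at −0.66, Zwilch at −0.62, Zw10 at −0.40 and Spdl1 at −0.31. All 4 were also lower with trends removed, with a median of −0.38.

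Of the 5 spindle checkpoint genes, 4 had lower means as deposited and the groups lay apart for 2. With trends removed all 5 had lower means and the groups lay apart for 4, all but Mad2l1. Over all genes tested, 8.5% then lay apart lower. Bub1b, whose product joins Mad2 and Bub3 in the complex that blocks Cdc20, was at 19.1, 15.7 and 19.8 FPKM in knockout-labelled hearts, against 35.6, 21.7 and 24.1 FPKM in wildtype-labelled hearts (log2 fold change −0.54, SE 0.28, and −0.33 without wildtype-labelled replicate 1). Bub3 was at 39.3, 47.2 and 47.2 FPKM in knockout-labelled hearts, against 51.5, 50.4 and 63.4 FPKM in wildtype-labelled hearts (−0.30, SE 0.26, and −0.20 without wildtype-labelled replicate 3). Bub1, a kinase that marks centromeric chromatin, was at 7.72, 4.46 and 3.95 FPKM in knockout-labelled hearts, against 11.3, 8.63 and 5.80 FPKM in wildtype-labelled hearts, which overlapped (−0.64, SE 0.34, and −0.42 without wildtype-labelled replicate 1). Mad2l1, which encodes Mad2, was at 25.1, 50.6 and 30.9 FPKM in knockout-labelled hearts, against 36.3, 49.3 and 13.4 FPKM in wildtype-labelled hearts (0.23, SE 0.49, and −0.31 without wildtype-labelled replicate 3). Mad1l1, the Mad2 receptor, was at −0.37 (SE 0.30), at −0.085 without wildtype-labelled replicate 3 and at −0.17 with trends removed. Spag5, a spindle and kinetochore protein also known as astrin, was at 6.98, 7.55 and 9.61 FPKM in knockout-labelled hearts, against 17.7, 8.69 and 8.05 FPKM in wildtype-labelled hearts (−0.41, SE 0.33). Wildtype-labelled replicate 1 stood far above the rest for Spag5, and without it the value was −0.065.

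**Figure D2:**
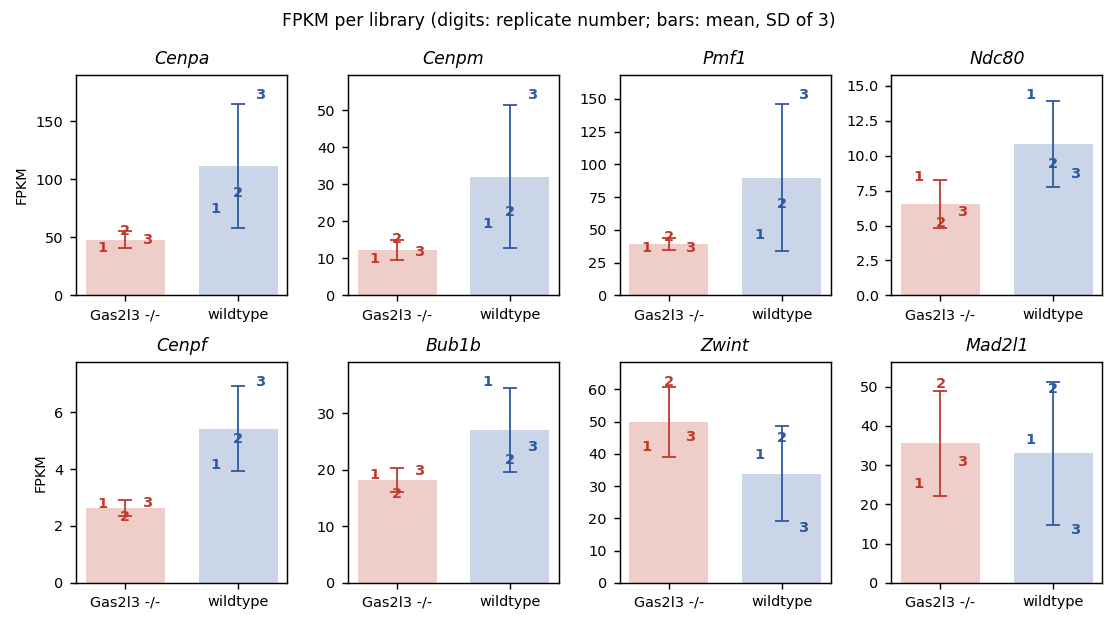
FPKM of 8 genes in Gas2l3 -/- (left) and wildtype (right) hearts, with digits at each library for its replicate number, bars for the mean and whiskers for the SD of 3 libraries. The groups lie apart for Cenpa, Cenpm, Pmf1, Ndc80, Cenpf and Bub1b and overlap for Zwint and Mad2l1, for both of which wildtype-labelled replicate 3 is the lowest library.

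**Figure D3:**
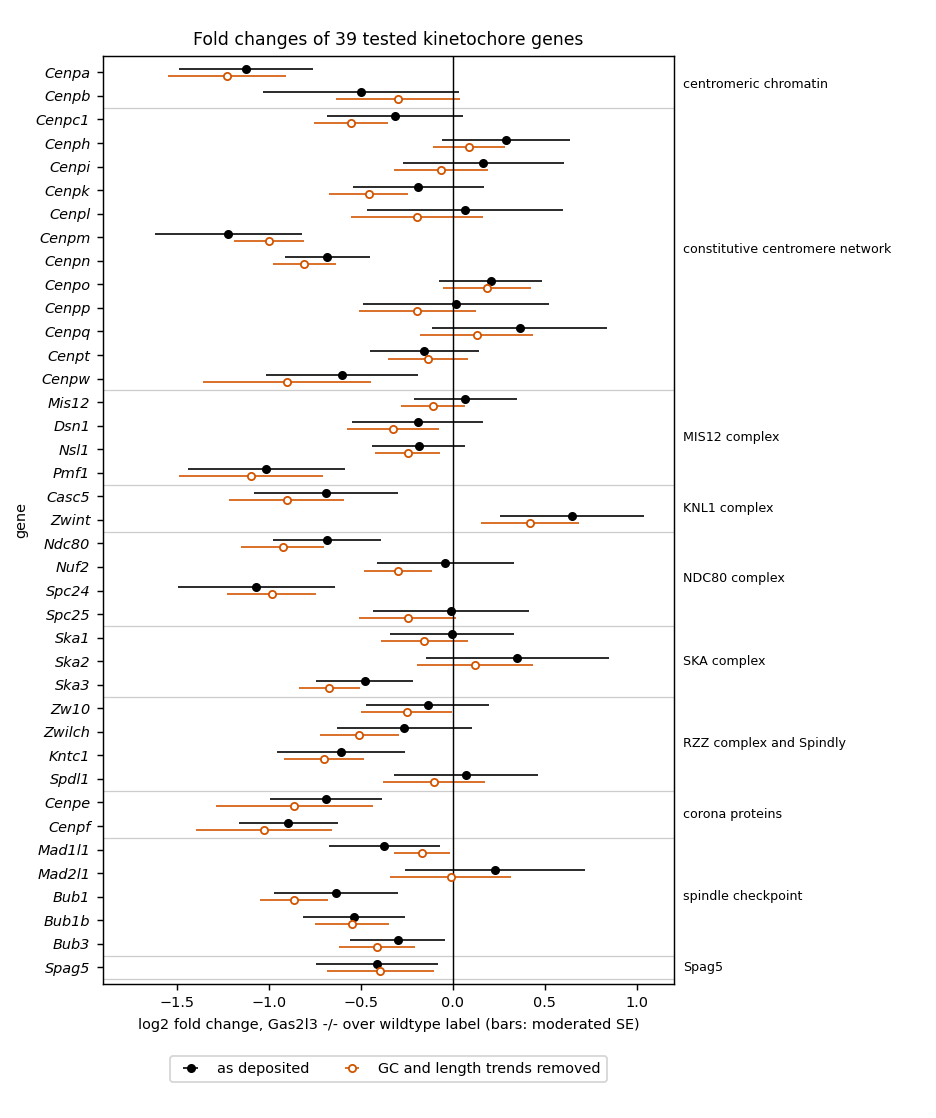
Log2 fold changes (horizontal axis, Gas2l3 -/- over wildtype label) with moderated SE of the 39 tested genes by sub-complex, as deposited (filled) and after GC and length trends were subtracted (open). Means are lower for 28 genes as deposited and for 34 with trends removed.

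Base composition ran through the values of wildtype-labelled replicate 3 gene by gene. Over the 39 members, the difference between that library and the mean of the other 2 wildtype-labelled libraries, in log2, correlated with transcript GC content at a Pearson r of 0.621 and a Spearman rho of 0.605, against 0.709 and 0.739 over 12070 tested genes. Points share the library, and genes are not independent replicates. Cenpb (56.3% GC) was 1.65 higher in that library and Spc24 (52.9% GC) 1.33 higher, whereas Ska2 and Cenpl (40.7% and 40.8% GC) were both 1.91 lower. By the longest transcript, composition did not order every gene: Pmf1 (47.5% GC) was 1.42 higher and Dsn1 (47.2% GC) 1.19 lower. The longest transcript of Pmf1 has 2346 bases, and 925 reads in that library gave 153 FPKM. For Cenpm, of 1202 bases, 438 reads gave 54.2 FPKM. Fewer reads made 1 FPKM for Pmf1 than for Cenpm, so the counted length was probably shorter and the GC content of Pmf1 is uncertain. Reads per FPKM in that library were also low for the listed length in other members. Among them, Cenpa, of 3806 bases, had 1666 reads and 173 FPKM. Cenpw, of 4143 bases, had 190 reads and 20.6 FPKM, and Mad2l1, of 7557 bases, had 141 reads and 13.4 FPKM. GC content and values with trends removed are uncertain for such genes too. The log2 fold changes of the members correlated with GC content at −0.316 as deposited, at 0.231 without wildtype-labelled replicate 3 and at −0.0365 with trends removed. Among 8 members of 50% GC or more the median was −0.46 as deposited and −0.34 without that library, and among the other 31 it was −0.19 and −0.52.

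**Figure D4:**
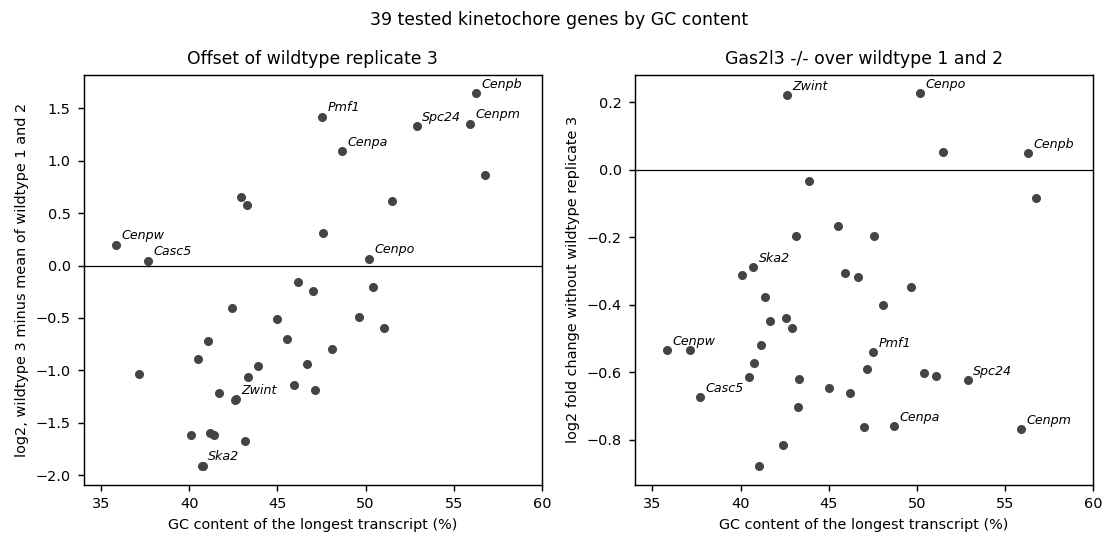
Transcript GC content (horizontal axis, percent) of the 39 tested genes against the log2 difference of wildtype-labelled replicate 3 from the other wildtype-labelled libraries (left) and against the log2 fold change without that library (right). The difference runs from 1.65 for Cenpb to −1.91 for Ska2 and Cenpl, and without that library 35 of 39 fold changes lie below 0.

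Promoters were read because many genes of mitosis share the cell cycle genes homology region (CHR), a short element bound by MuvB complexes such as DREAM. RefSeq windows (GRCm38.p6, 250 bases before to 50 after the start) were found for 36 of the 40 genes, with Casc5 matched under its current symbol Knl1, and not for Spc24, Nsl1, Zwilch and Ska1. The CHR letters TTTGAA or TTCGAA, on either strand, occurred for 19 of 36 genes (52.8%), against 21.7% of 27025 genes with a window and 15.7% of those tested. A gene counts where any of its windows holds the letters, and Bub3, Cenpk and Mad1l1 have more than 1 (40 windows for the 36 genes). CCAAT occurred for 24 (66.7%, against 41.1% of all and 42.7% of tested genes) and the E2F letters TTCCCGC or TTGGCGC for 12 (33.3%, against 7.79% of all and 14.6% of tested genes). CHR overlapped a CCAAT match in 2 windows, those of Cenpw and Kntc1. A match is a description of these letters and not a bound site. The printed stretches run from 150 bases before to 30 after the start, 5′ to 3′ on the strand of the gene, with CHR and CCAAT matches in capitals (TTCAAA and ATTGG are the same letters on the other strand). The first 5 belong to members whose groups lay apart and that hold CHR letters, and the last 2 to the members Zwint and Ska2 with no CHR letters and higher means. Members that went the other way are not printed. Among these, Cenpl and Spdl1 hold CHR letters and had higher means (log2 fold changes 0.06 and 0.07). Cenpe holds none, and its groups lay apart lower. Cenpa is at chr5:30666736-30666915 (plus strand), Cenpf at chr1:189688057-189688236 (minus), Cenpm at chr15:82244307-82244486 (minus), Cenpn at chr8:116921590-116921769 (plus), Ska3 at chr14:57826134-57826313 (minus), Zwint at chr10:72654696-72654875 (plus) and Ska2 at chr11:87109111-87109290 (plus).
Cenpa: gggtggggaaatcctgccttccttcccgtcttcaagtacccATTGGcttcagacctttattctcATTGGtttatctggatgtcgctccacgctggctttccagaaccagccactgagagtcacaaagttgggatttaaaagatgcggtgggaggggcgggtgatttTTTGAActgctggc
Cenpf: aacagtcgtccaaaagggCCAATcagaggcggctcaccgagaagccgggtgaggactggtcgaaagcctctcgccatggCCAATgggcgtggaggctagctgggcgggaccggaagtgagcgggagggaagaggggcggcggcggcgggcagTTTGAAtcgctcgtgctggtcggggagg
Cenpm: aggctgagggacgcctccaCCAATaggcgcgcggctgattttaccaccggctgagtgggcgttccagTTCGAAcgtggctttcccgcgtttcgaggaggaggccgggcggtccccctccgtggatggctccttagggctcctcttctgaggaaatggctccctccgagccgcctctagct
Cenpn: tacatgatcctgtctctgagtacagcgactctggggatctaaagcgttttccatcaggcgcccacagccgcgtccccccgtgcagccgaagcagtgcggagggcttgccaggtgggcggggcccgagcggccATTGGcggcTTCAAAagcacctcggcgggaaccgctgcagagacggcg
Ska3: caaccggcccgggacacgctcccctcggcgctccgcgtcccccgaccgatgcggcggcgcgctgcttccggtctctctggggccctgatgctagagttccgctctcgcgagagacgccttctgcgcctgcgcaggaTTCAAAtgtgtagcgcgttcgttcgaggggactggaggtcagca
Zwint: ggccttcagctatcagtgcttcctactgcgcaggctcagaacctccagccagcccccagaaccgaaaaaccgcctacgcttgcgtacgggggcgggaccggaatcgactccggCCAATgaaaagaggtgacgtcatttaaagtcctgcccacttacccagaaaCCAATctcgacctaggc
Ska2: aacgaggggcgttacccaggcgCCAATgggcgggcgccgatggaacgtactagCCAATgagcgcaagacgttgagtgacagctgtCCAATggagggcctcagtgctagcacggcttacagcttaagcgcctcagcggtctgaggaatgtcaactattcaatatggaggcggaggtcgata

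Members with CHR letters had the lower fold changes. Of 18 tested members with them, 16 had lower means, the median log2 fold change was −0.61 and the groups lay apart for 9, against 8 of 17, a median of 0.02 and 1 for members without. Over all tested genes with a window, the groups lay apart lower for 6.73% of those with CHR letters and 4.36% of those without. The only member without CHR letters whose groups lay apart was Cenpe. With trends removed the medians were −0.75 and −0.14, with 18 of 18 and 12 of 17 lower. Without wildtype-labelled replicate 3 they were −0.63 and −0.29, and without wildtype-labelled replicate 1 they were −0.38 and 0.17. Median transcript GC content was 46.1% with and 42.9% without the letters, and its part in the difference was not tested. Over all tested genes with a window the medians as deposited were −0.02 both with CHR letters (1441 genes) and without (7722 genes). With trends removed they were −0.045 and −0.012, and without wildtype-labelled replicate 3 they were −0.035 and 0.002. Without wildtype-labelled replicate 1 the order was reversed, at 0.039 and −0.003. Medians by CCAAT were closer, at −0.31 with and −0.17 without, and by E2F letters at −0.16 with and −0.41 without.

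**Figure D5:**
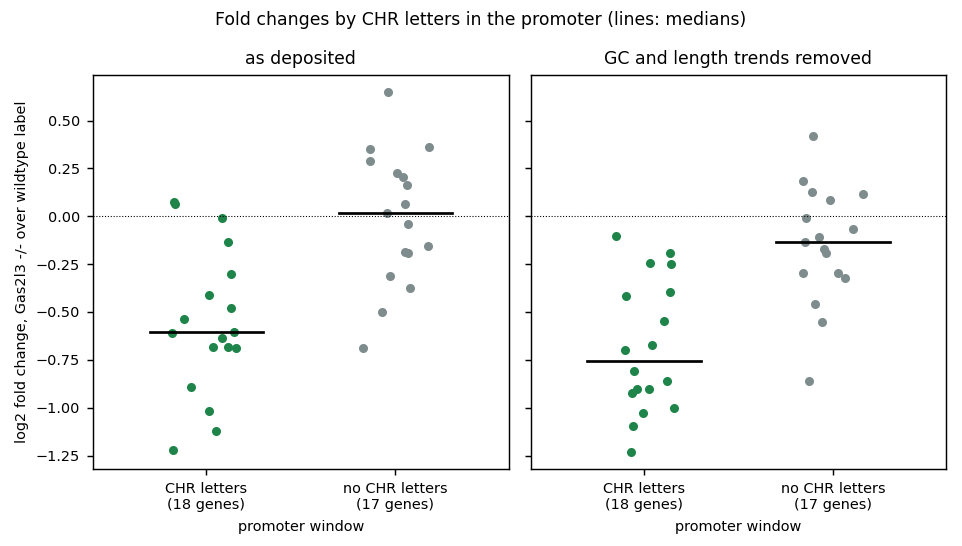
Log2 fold changes (Gas2l3 -/- over wildtype label) of 35 tested genes with a promoter window, with CHR letters (18 genes) and without (17 genes), as deposited (left) and after GC and length trends were subtracted (right); lines are medians. Medians are −0.61 and 0.02 as deposited and −0.75 and −0.14 with trends removed.

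Other genes of the centromere and kinetochore, on a list that holds none of the 40, had lower means for 35 of 38 tested, with a median of −0.43. None was called, 9 had an unadjusted p under 0.05, all lower (limma), and the groups lay apart lower for 10 and higher for 1, Ndel1, a dynein regulator. Over all tested genes 1.35% were lower at that p, and the groups lay apart lower for 4.74% and higher for 5.02%. Named are the 4 of smallest p, of which Birc5, Cdc20 and Cdca8 were known from earlier results of these data. The smallest belonged to Birc5, at 14.9 ± 0.762 FPKM in knockout-labelled and 27.1 ± 4.24 FPKM in wildtype-labelled hearts (SD, n = 3 each), a log2 fold change of −0.83 (SE 0.24). Cdc20, the target of the checkpoint, was at 33.6 ± 1.65 FPKM in knockout-labelled and 69.2 ± 24.998 FPKM in wildtype-labelled hearts (−0.98, SE 0.31). Cdca8 was at −0.84 (SE 0.27) and the kinase gene Aurkb at −0.70 (SE 0.23), and both belong with Birc5 to the chromosomal passenger complex. A list of 15 proliferation genes had lower means for 13 and a median of −0.50, with Mki67 at −0.51 (SE 0.39). The replication clamp gene Pcna, at 0.16 (SE 0.47), was 1 of the 2 with higher means. Groups lay apart lower for 7 of the 15 (46.7%), against 25.6% of the members. With trends removed this held for 10 (66.7%), against 43.6% of the members and 8.5% of all genes tested. Differences between these lists and the kinetochore members were not tested.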

How the data were processed

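Poly(A) RNA libraries of E18.5 mouse hearts, 3 knockout-labelled and 3 wildtype-labelled, were analysed. The authors deposited FPKM per gene and library, and their own comparison of the groups. FastQC, DESeq2 and mm10 are named in the submitters' processing notes, without versions. Aligner, counter, annotation and use of strand: not given in the sources used here. The values show that the FPKM follow size factors between libraries. Each FPKM was multiplied by the gene's ratio of mean normalized count, from the authors' deposited table, to mean FPKM, and divided by the worth of 1 read in its library. This gave whole reads for 94235 of 94235 values above 0 (100% within 0.01), with 3414257 to 7732674 reads per library. PCR copies are not told apart from molecules.

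Tests used limma (version 3.58.1, R 4.3.3) with an intensity-dependent prior on log2(FPKM + 0.5). They were two-sided and covered 12121 genes with at least 1 FPKM in 3 libraries or more, Benjamini-Hochberg adjusted over all of them, with calls under 0.05. On this scale the change of low genes is understated. Transcript GC content was read from GENCODE (GRCm38, the build also named mm10), taking the longest transcript of a symbol. The longest transcript need not be the one counted, and where they differ GC content and values with trends removed are uncertain. GC and length trends were subtracted per library by loess (span 0.3). The limma test, without trend removal or pairing, was tried on simulated data. Those data held independent values with no GC, length or library trend, so they do not speak for the trend removal. To see whether replicate numbers pair the libraries, deviations from group means were correlated between knockout-labelled and wildtype-labelled libraries. Those sharing a number gave 0.472, 0.443 and 0.186, all over 0.1, so a second fit took the number as a block. With trends removed the correlations were 0.275, 0.387 and 0.114, the last only just over 0.1. This pairing is inferred from the data and not stated in the labels.

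The members, sub-complexes and lists were chosen with earlier results of these data known. Given by library were the 2 members of each sub-complex with the smallest p, the most abundant one, and each with a higher mean. The promoters shown were chosen after values were seen. Alternatives covered pseudocounts, filters, scaling, pairing, trends, library weights, voom on recovered reads and each library left out.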

Additional observations from a re-analysis of the deposited data

How the results depend on the processing

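No member was called by limma in any of 21 settings, and the lowest adjusted p of a member over them ran from 0.233 (trends on GC content and length removed) to 1. Over all tested genes, 0 were called except 1 with trends removed and 2 with library weights. The number of members with a lower mean, 28, was 21 to 35 with 1 library left out, 34 with trends removed and 37 when wildtype-labelled replicate 3 was also left out, an alternative chosen after seeing the data. Members whose groups lay apart lower numbered 10 (4.74% of all tested genes). They were 6 (3.2% of all) after rescaling to a common FPKM total, which put the median of all tested genes at 0.15, and 17 (8.5%) with trends removed. After rescaling, 1 member lay apart higher (4.5% of all). The same count held with quantile normalization (4.61%). It also held without knockout-labelled replicate 1 (8.13%) or 3 (6.64%) and without wildtype-labelled replicate 1 (15.2%) or 2 (11.4%). With 1 library left out separation is easier: members apart lower were 11 to 18, over all tested genes 6.78% to 17.3%. They were 18 (8.7%) without wildtype-labelled replicate 3 and 13 (17.3%) without wildtype-labelled replicate 1. With trends removed over all 6 libraries and wildtype-labelled replicate 3 left out afterwards, they were 22 (13.5%). For the 37 lower means and for fold changes, that library was left out before trends were subtracted. The median of the members was −0.52 to −0.065 with 1 library left out and −0.11 with a common total. The SKA median, near 0, was −0.35 with library weights, −0.32 with trends removed and without wildtype-labelled replicate 3, and −0.32 to 0.18 with 1 library left out. The KNL1 median was 0.65 with a mean of 5 FPKM required, as Zwint alone was then left. The proliferation median was −0.33 with a common total and −0.48 to −0.33 with 1 library left out. Members changed sign: 11 of 39 without wildtype-labelled replicate 3, 9 to lower and 2 to higher, the farthest from 0 at first being Cenpb (0.501), 7 without wildtype-labelled replicate 1, all to higher, 6 with trends removed, all to lower, and 5 with a common total, all to higher. The replicate block left every fold change as it was and changed no call of a member (the 1 gene called with trends removed was not called with the block), with 12 members lower at an unadjusted p under 0.05 against 7 (2.27% and 1.35% of all tested genes), and with trends removed 17 lower and 1 higher against 14 lower (5.23%, 5.81% and 3.99% of all). Library weights were estimated gene by gene, as the default estimate did not converge. Depth limits the rarest members: Cenpo and Cenpl went down to 22 reads in a library, and Hjurp had 34 to 50.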
